A study of Arabidopsis thaliana with 6 samples.

Results

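LD, SMZ, FLC, SOC1 and CO are 5 regulators of flowering time in Arabidopsis thaliana, and each was followed through 1 probe set of the ATH1 array among 22746 probe sets that are not controls. The 5 were taken by a list of probe sets, made with earlier results of these data known. The platform annotation used here pairs 2 of these probe sets with a single gene, LD (AT4G02560, probe set 255444_at) and SMZ (AT3G54990, 251811_at). For the other 3, FLC (AT5G10140, 250476_at), SOC1 (AT2G45660, 267509_at) and CO (AT5G15840, 246525_at), the pairing rests on the list alone. Genotypes of the Col-0 background were compared, wild-type Col-0 and the mutant atsf1-2, which affects AtSF1, a pre-mRNA splicing factor. Each had 3 biological replicates of 1 array each, from untreated whole seedlings kept on MS agar at 23 C, with 16 h of light and 8 h of dark, until day 9. A single mutant allele stands for the loss of AtSF1 here, and AT5G51300, the AtSF1 gene, was not analysed. In whole seedlings, fewer cells of a type and less RNA per cell cannot be told apart.

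Flowering in Arabidopsis is set by pathways that meet on a few genes. In long days the zinc finger protein CO turns on FT in the leaf, whose protein moves to the shoot apex and there acts with the bZIP protein FD. SOC1 is a MADS-domain protein that promotes flowering. FLC, a MADS-domain repressor, binds and holds down both FT and SOC1. LD is a nuclear homeodomain protein of the autonomous pathway, a set of genes that keep FLC low without a cold period. SMZ, of the AP2 family, is another repressor of FT.

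Of the 5 genes, FLC rose and LD fell in atsf1-2, while SMZ did not pass the threshold and SOC1 and CO were too dim to test. FLC was 1.60-fold higher in the mutant (95% confidence interval 1.24 to 2.06), and LD was 2.01-fold lower. Probe sets entered the test when their mean log2 signal lay at or above the 40th percentile, a geometric mean of at least 104.44, and 3 of the 5 genes did. Genotypes were compared with limma over all 13648 probe sets kept, adjusting p-values by Benjamini-Hochberg and calling those under 0.05. At that threshold 3.00% of tested probe sets were higher in atsf1-2 and 5.19% were lower. With 1 call in each direction among 3 genes tested, the count says little beyond the separate values of FLC and LD.

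LD signals in Col-0 were 225, 243 and 246 for replicates 1 to 3. In atsf1-2 they were 110, 154 and 97.6, the last of them below 104.44, the lowest geometric mean tested. Each mutant array was below each Col-0 array, which held for 19.2% of tested probe sets in that direction. Mean signal fell from 238 ± 11.4 to 121 ± 29.8 (SD, n = 3 for each). On the log2 scale the fold change of LD was -1.01 ± 0.21 (SE, adjusted p by limma = 0.0182), with a 95% interval from -1.46 to -0.55. Of all tested probe sets, 1.15% had a lower log2 fold change than LD. Leaving out 1 array ended the call of LD without Col-0 replicate 1, 2 or 3 (limma adjusted p = 0.0656, 0.0622 and 0.0729) or without atsf1-2 replicate 1 (0.0665), while the log2 fold change lay between -1.20 and -0.87 over all 6 such fits.

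FLC moved the other way from LD, and whether these changes are linked was not tested. Col-0 signals of FLC were 242, 249 and 239, close to each other. Its atsf1-2 signals were 334, 469 and 378, all above every Col-0 array, as for 12.1% of tested probe sets in that direction. The mean rose from 243 ± 5.15 to 394 ± 69.2 (SD, n = 3 for each), so nearly all of the spread lay among the mutant arrays. The log2 fold change of FLC was 0.68 ± 0.17 (SE, adjusted p by limma = 0.0330), and 98.0% of tested probe sets had a lower one.

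The call of FLC was less firm than its direction. Without 1 array, limma's adjusted p for FLC was 0.119, 0.0777 and 0.114 for Col-0 replicates 1, 2 and 3, and 0.0518, 0.0733 and 0.0379 for atsf1-2 replicates 1, 2 and 3. Only the last of these passed, although the log2 fold change stayed between 0.55 and 0.79. With no filter on low signals, which brings many more probe sets into the adjustment, it was 0.0571. After quantile normalization the log2 fold change was 0.82 (limma adjusted p = 0.0152), and it was also 0.82 once arrays were centred on their median signals (limma adjusted p = 0.0110).

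**Figure D1:**
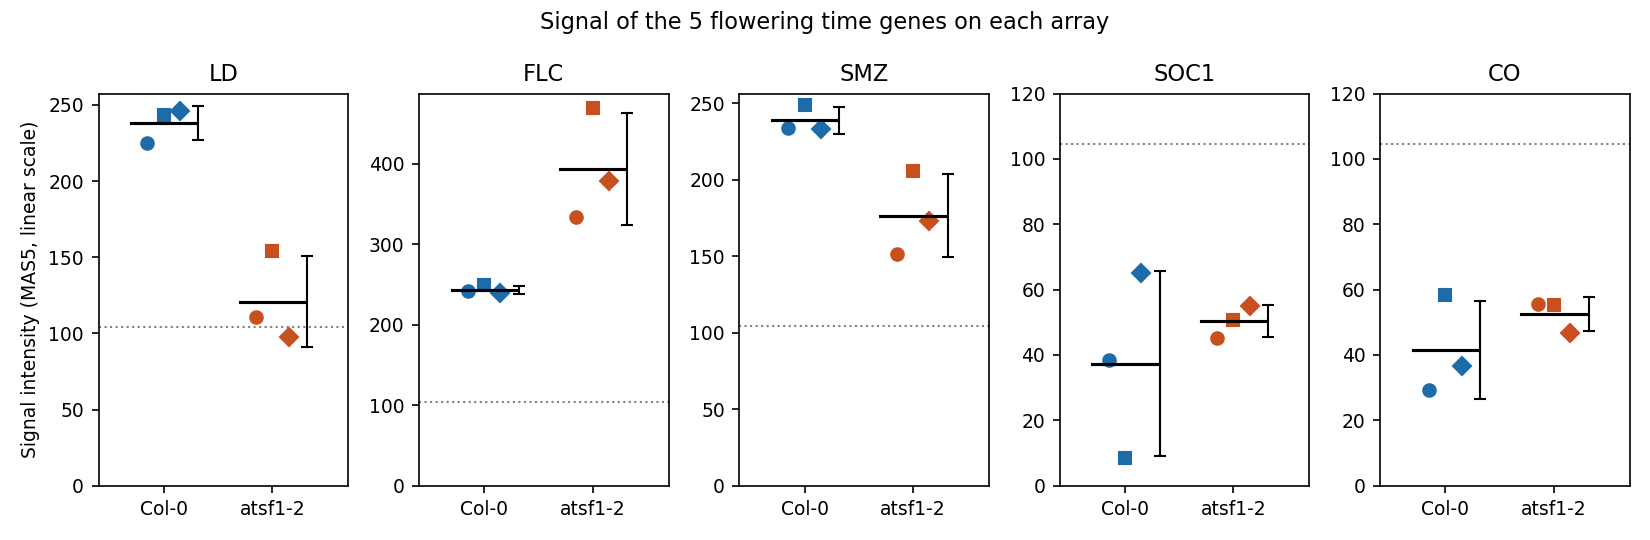
Signal of LD, FLC, SMZ, SOC1 and CO on each array, on a linear scale that differs between panels. Circles, squares and diamonds are replicates 1, 2 and 3, the thick line is the mean and the bar its SD (n = 3), and the dotted line at 104.44 is the lowest geometric mean over 6 arrays that was tested. LD and SMZ are lower and FLC higher on every atsf1-2 array, and LD lies below the dotted line on atsf1-2 replicate 3. The genotypes overlap for SOC1 and CO, whose signals all lie below that line.

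The opposite moves of FLC and LD can be read within each array, where the scaling of an array cancels. Both genes had already separated the genotypes in opposite directions, so their ratio had to do so too and is no further test. The ratio of FLC signal to LD signal was 1.08, 1.02 and 0.972 on the Col-0 arrays. On the atsf1-2 arrays it was 3.02, 3.04 and 3.88. Since probe sets may differ in how well they bind, only the change of the ratio between arrays carries meaning, and not its size on any one. On the log2 scale its mean was 0.033 ± 0.073 in Col-0 and 1.72 ± 0.21 in atsf1-2 (SD, n = 3 for each). Among the mutant arrays, replicate 2 had the highest signal for both genes.

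**Figure D2:**
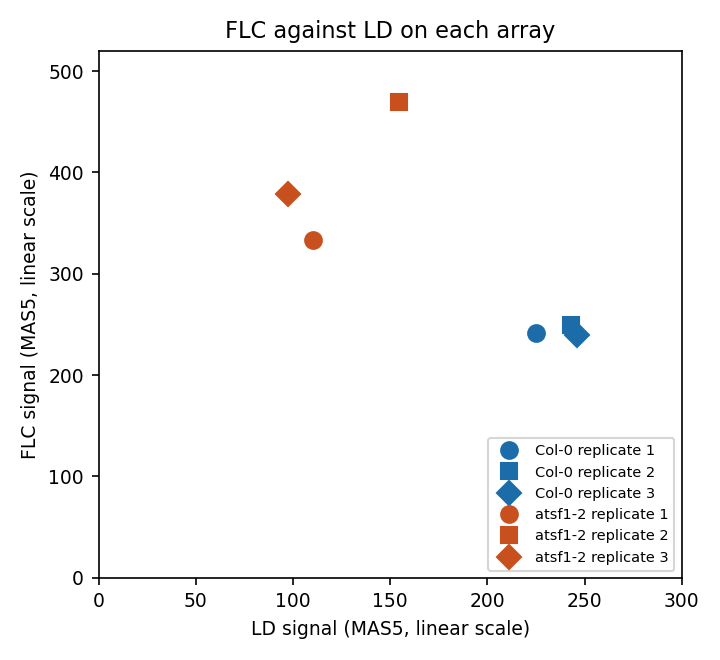
FLC signal against LD signal on each of the 6 arrays, both on a linear scale from 0. Col-0 arrays (blue) lie together at LD signals of 225 to 246 and FLC signals of 239 to 249, and atsf1-2 arrays (orange) lie apart from them, at LD signals of 97.6 to 154 and FLC signals of 334 to 469.

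SMZ gave a smaller difference that did not pass. Its signals were 234, 249 and 233 in Col-0 and 151, 205 and 173 in atsf1-2, without overlap. The mean was 239 ± 8.97 in Col-0 and 176 ± 27.2 in atsf1-2 (SD, n = 3 for each). This is a log2 fold change of -0.45 ± 0.18 (SE, adjusted p by limma = 0.141; unadjusted p = 0.0282), and 13.7% of tested probe sets had a lower one. The 95% interval, from 0.560 to 0.961 of the Col-0 signal, includes both a sizeable fall and almost none. Scaling made the difference smaller. The log2 fold change was -0.30 after quantile normalization (limma adjusted p = 0.303) and -0.31 with median centring (limma adjusted p = 0.283). As for LD and FLC, atsf1-2 replicate 2 had the highest signal among the mutant arrays. The SMZ relative SNZ, another repressor of the AP2 family, had signals of 125, 89.5 and 102 in Col-0 and 86.2, 105 and 176 in atsf1-2. Its log2 fold change was 0.16 ± 0.28 (SE, adjusted p by limma = 0.759) and turned negative without atsf1-2 replicate 3 (-0.14).

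SOC1 and CO, the promoters of flowering in the set, had signals under the lowest level tested on every array. SOC1 signals were 38.4, 8.45 and 65.1 in Col-0 and 45.3, 50.7 and 55.1 in atsf1-2. The mutant values fell inside the Col-0 range, which Col-0 replicate 2 made wide. CO signals were 29.4, 58.2 and 36.7 in Col-0 and 55.6, 55.4 and 46.7 in atsf1-2, again overlapping. Detection calls were not used here, so these signals may hold little beyond background.

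For a bound on SOC1 and CO, the fit without a filter was used, in which 1.17% of 22746 probe sets were higher and 1.93% lower at the same threshold. The log2 difference of SOC1 was 0.86 ± 0.69 (SE, adjusted p by limma = 0.577), and the interval of the fold change ran from 0.636 to 5.19. Without Col-0 replicate 2 the log2 difference of SOC1 was 0.0067, and without Col-0 replicate 3 it was 1.48, so its size rested on single arrays. The log2 difference of CO was 0.40 ± 0.42 (SE, adjusted p by limma = 0.700), with an interval of the fold change from 0.688 to 2.52. For CO the value ran from 0.18 without Col-0 replicate 1 to 0.67 without Col-0 replicate 2. Both intervals include no change as well as a rise of the size seen for FLC, so neither was detectable at this precision.

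Other genes of these pathways were followed through lists of 72 flowering time genes that include the 5. Of the other 67 genes, 7 had a probe set that the annotation pairs with them alone, and 4 of these passed the filter. Among the 4, none rose and 1 fell, beside 3.00% and 5.19% of all probe sets tested, and their median log2 fold change was 0.076, against -0.070 over all tested. The gene that fell was AT1G69570, listed under the photoperiod pathway as CDF5, a name that the reference table does not give. The CDF proteins are DOF-type transcription factors that repress CO.

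AT1G69570 signals were 287, 424 and 295 in Col-0 and 158, 234 and 181 in atsf1-2, which do not overlap. For AT1G69570 the log2 fold change was -0.81 ± 0.21 (SE, adjusted p by limma = 0.0411). Its call was lost without Col-0 replicate 1, 2 or 3 (adjusted p by limma = 0.0856, 0.120 and 0.0880) and without atsf1-2 replicate 1 (0.129) or 3 (0.0596), with log2 fold changes of -0.96 to -0.63 over all fits without single arrays. It was also lost with no filter (0.0744), after quantile normalization (0.0699) and with median centring (0.0524), where its log2 fold change was -0.67 under both scalings.

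GI, a clock-linked protein that acts upstream of CO, had a log2 fold change of 0.24 ± 0.17 (SE, adjusted p by limma = 0.413). The value of GI was 0.12 without atsf1-2 replicate 2 and 0.38 without atsf1-2 replicate 3, and 0.37 after quantile normalization and 0.38 with median centring. FY, an RNA 3′ end processing factor of the autonomous pathway to which LD also belongs, had -0.0080 ± 0.17 (SE, adjusted p by limma = 0.983), with overlapping signals of 183 to 214 in Col-0 and 174 to 211 in atsf1-2. FY turned positive after quantile normalization (0.14) and with median centring (0.13). In the autonomous pathway list, then, LD passed and FY did not, and that difference between them was not tested.

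The remaining listed genes that the annotation pairs with a probe set were dim. FD, the bZIP partner of FT protein at the apex, ranged from 28.1 to 67.4 in Col-0 and from 1.79 to 47.5 in atsf1-2. AGL24, a MADS-domain promoter of flowering that acts with SOC1, was at 49.8, 10.4 and 47.5 in Col-0 and at 14.1, 3.05 and 10.6 in atsf1-2, overlapping through Col-0 replicate 2. AT2G30120, listed as FLX among activators of FLC and not named so in the reference table, lay between 59.1 and 102 on all arrays. No gene of the vernalization, SPL or meristem identity lists had such a probe set, and FT, SVP, FLM and the MAF genes were not analysed here.

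**Figure D3:**
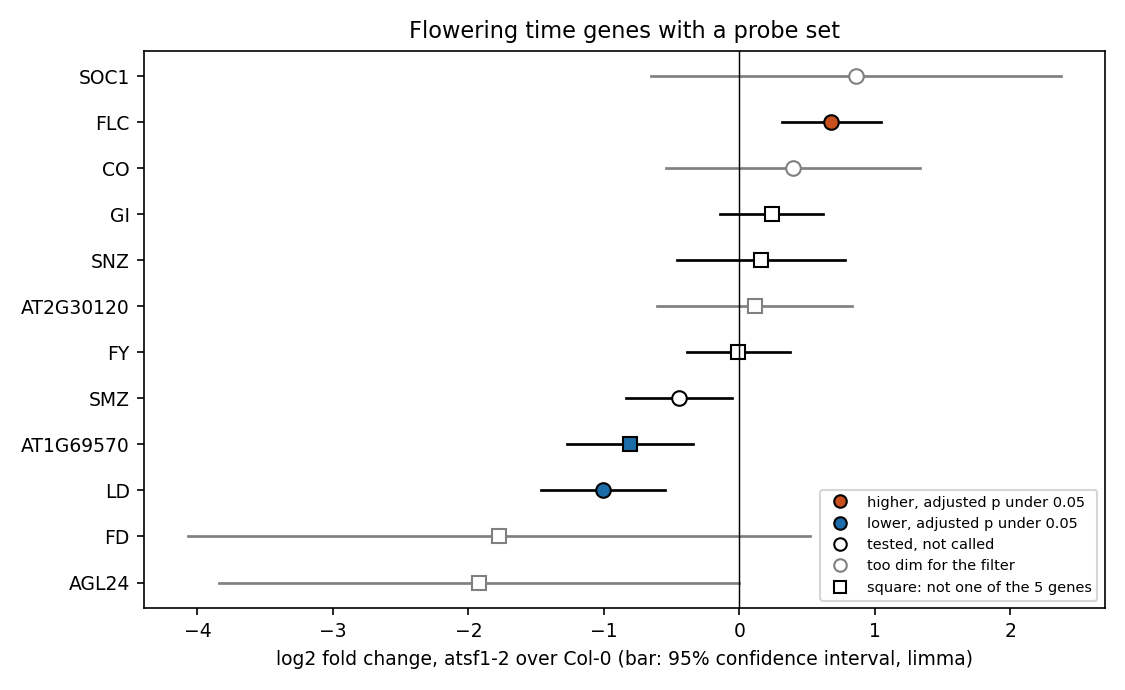
Fold change on the log2 scale, atsf1-2 over Col-0, of the 12 listed flowering time genes paired with a probe set, with 95% confidence intervals from limma. Circles are the 5 genes described first and squares the 7 others, grey marks genes too dim for the filter, and their intervals come from the fit without it. FLC (0.68) is filled as higher, LD (-1.01) and AT1G69570 (-0.81) are filled as lower, and each grey gene has a wider interval than any tested gene.

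FLC and SOC1 belong to the MADS-domain family, and the RefSeq table names 97 other genes AGAMOUS-like. This comparison was added after the data were seen. Of 42 such genes that the annotation pairs with a probe set, 5 passed the filter. At the threshold, none of these rose and 1 fell, beside 3.00% and 5.19% of all probe sets tested. Their median log2 fold change was -0.24, against -0.070 over all tested, and 5 genes are too few to describe the family. The gene that fell was AT1G30260, with a log2 fold change of -0.79 and signals of 661, 575 and 563 in Col-0 and 375, 291 and 381 in atsf1-2 (limma adjusted p = 0.0169). It carries the name only as a synonym that is also given to another locus, AT3G30260, so its place in the family is uncertain. It no longer passed when Col-0 replicate 1 (adjusted p by limma = 0.0856) or Col-0 replicate 3 (0.0513) was left out, with log2 fold changes of -0.71 and -0.83.

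AGL16, known as a repressor of flowering, had signals of 245, 318 and 252 in Col-0 and 159, 193 and 90.1 in atsf1-2. The genotypes did not overlap, and the log2 fold change of AGL16 was -0.94 ± 0.26 (SE, adjusted p by limma = 0.0519). It passed with a pseudocount (log2 fold change -0.78, limma adjusted p = 0.0457), with array weights (-0.69, 0.0233) and without atsf1-2 replicate 2 (-1.17, 0.0320). It was smaller and did not pass without atsf1-2 replicate 3 (-0.62, 0.0654) or without that array and Col-0 replicate 2 together (-0.51, 0.102). AGL18, also known to repress flowering, had a log2 fold change of -0.11 ± 0.20 (SE, adjusted p by limma = 0.768). That of AGL87 was -0.24 ± 0.24 (SE, adjusted p by limma = 0.573). AGL26 went the other way, with a log2 fold change of 0.40 ± 0.13 (SE) that did not pass (adjusted p by limma = 0.0872). On the tested probe set of AGL26, signals were 1234.4, 1500.5 and 1333.4 in Col-0 and 1660.8, 1723.0 and 1971.7 in atsf1-2, without overlap. Another probe set paired with AGL26 was too dim to test, with overlapping signals of 0.60 to 12.1 over all arrays.

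Genes next to the 5 on the chromosome were also read, a choice made after the data were seen. Among the 2 protein-coding genes on each side, 20 in all, 9 had a probe set that the annotation pairs with them alone. Of these, 7 were tested and none passed, where 3.00% of all tested probe sets were higher and 5.19% lower. Their log2 fold changes ran from -0.58 to 0.77. The highest was that of AT5G10130, directly beside FLC. Its signals were 246, 177 and 166 in Col-0 and 439, 282 and 288 in atsf1-2, without overlap (log2 fold change 0.77 ± 0.22 SE, adjusted p by limma = 0.0561). AT5G10160, which lies 2 genes from FLC on the other side, had a log2 fold change of -0.073 ± 0.15 (SE). Directly beside LD, AT4G02550 was dim. AT4G02580, 2 genes from LD, had 0.40 ± 0.12 (SE, adjusted p by limma = 0.0678), opposite in sign to LD. The lowest value was that of TON1B, 2 genes from SMZ, at -0.58 ± 0.25 (SE, adjusted p by limma = 0.167), with overlapping signals.

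Likeness over the 6 arrays was measured by Pearson's r of log2 signals, among tested probe sets with 1 named gene. For LD the most alike were AT5G06440 (r = 0.998) and AT5G17670 (r = 0.998), for FLC they were AT4G09760 (r = 0.999) and CYP71 (r = 0.989), a nuclear cyclophilin, and for SMZ they were AT3G16850 (r = 0.995) and AT1G22180 (r = 0.994). Over all tested probe sets, named or not, r was above 0.95 for 346 with LD (2.54%), 176 with SMZ (1.29%) and 48 with FLC (0.352%). The genes named here share the step between genotypes and the highest mutant signal in atsf1-2 replicate 2, which follows from choosing them by r over the same arrays. That array also had the highest median signal of the mutant arrays, 181 against 165 and 171, and its part in the likeness was not tested.

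Counting every tested probe set, 409 rose and 709 fell in the mutant, but 449 and 476 after quantile normalization and 755 and 362 with median centring, which moved the median log2 fold change from -0.070 to 0.071. LD, FLC and SMZ kept their signs under both scalings. Of the seedling markers, the root genes EXPA7, EXPA18 and PYK10 had log2 fold changes from -0.064 to -0.0061 and none passed. Of the green shoot genes RCA did not pass, and the antenna protein gene LHCB4.3 was higher in atsf1-2 (log2 fold change 0.56, adjusted p by limma = 0.0487, and 0.0673 with no filter), and its part in the results for flowering genes was not tested. CLV3, the one shoot apex marker that the annotation pairs with a probe set, lay between 2.62 and 20.1 on all arrays. No flower marker had such a pairing, which does not mean that the array lacks a probe set for it. The 3′ to 5′ signal ratio of actin, which is lower where RNA is more intact, was 2.14 on Col-0 replicate 2 and 2.47 on atsf1-2 replicate 3. On the other arrays it was 3.36 to 3.63. For GAPDH and ubiquitin that ratio was 0.896 and 1.22 on Col-0 replicate 2, the lowest of all arrays, and 1.09 and 1.31 on atsf1-2 replicate 3, within the range of the others. Col-0 replicate 2 and atsf1-2 replicate 3 also had the lowest array weights from limma, 0.535 and 0.315, against 0.82 to 2.45 on the others. Without both of these arrays the log2 fold change was -0.85 for LD (limma adjusted p = 0.0456), 0.72 for FLC (0.0544) and -0.41 for SMZ (0.212).

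**Figure D4:**
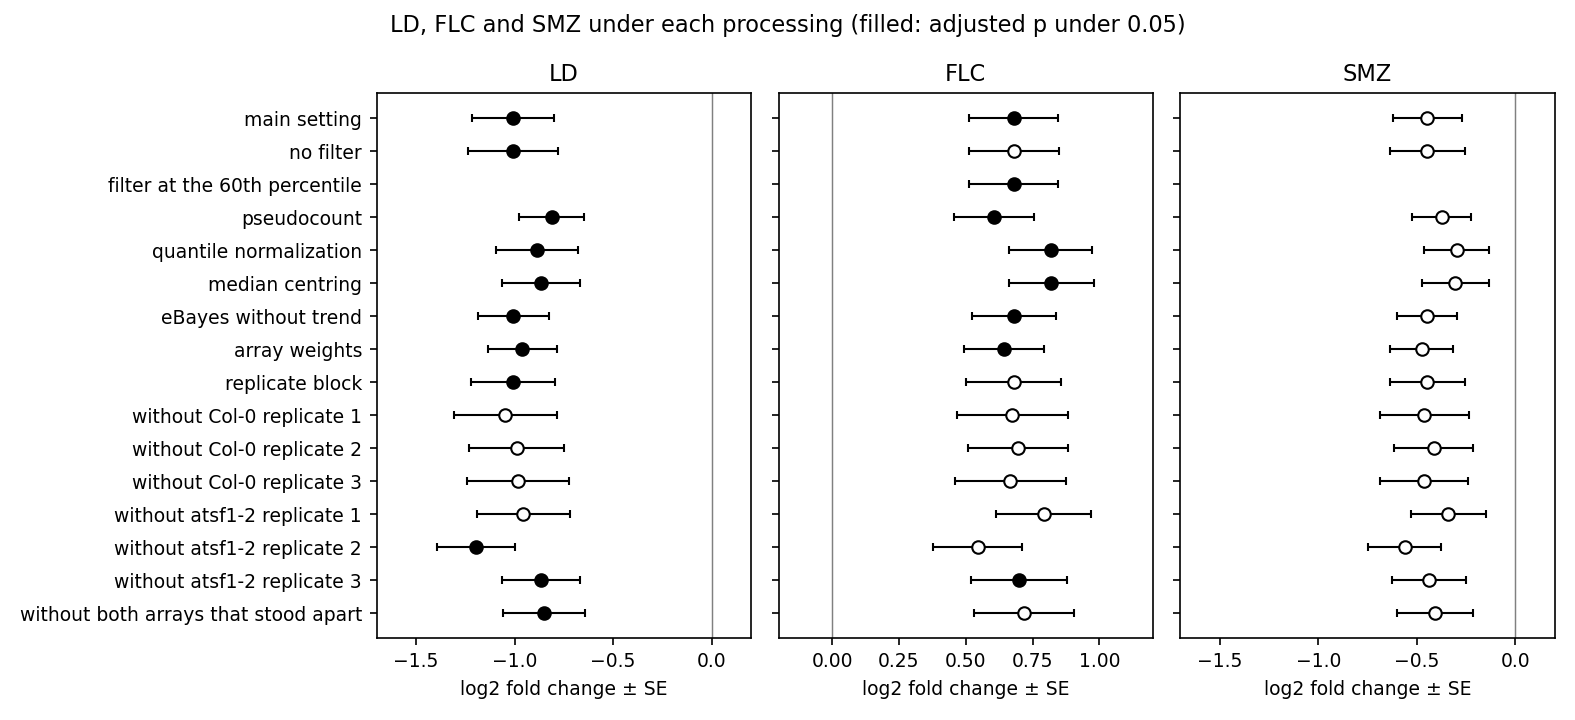
Log2 fold change, atsf1-2 over Col-0, of LD, FLC and SMZ with its SE under the main setting and each alternative. Filled points passed limma's adjusted threshold of 0.05, and LD and SMZ have no point at the 60th percentile filter, which drops them. LD lies between -1.20 and -0.81, FLC between 0.55 and 0.82 and SMZ between -0.56 and -0.30, and no point of any gene crosses 0.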

How the data were processed

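Total RNA of 6 seedling samples, 300 ng each per the labels, was biotin-labelled for ATH1 arrays. Each deposited value is a linear signal intensity of a probe set, which the authors computed in Affymetrix Expression Console 1.2 by MAS5, according to the submitters' processing notes. MAS5 settings beyond this were not given in the sources used here. The titles give each sample's genotype.

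Of 22810 probe sets, 64 controls were left out of the tests. The annotation pairs 13513 of the others with 1 gene, 503 with several and 8730 with none, and 13436 matched the RefSeq table of TAIR10.1, used for names and gene order only. The signals were log2-transformed without more scaling. Probe sets at or above the 40th percentile of mean log2 signal were compared by lmFit and trended eBayes of limma 3.58.1 (R 4.3.3), two-sided, over all probe sets kept. SE and intervals are those of the moderated fit. The procedure was also run on simulated data with known changes. These were independent normal values without differences between arrays, and with spreads shuffled over probe sets.

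The members, gene lists and tests were chosen with earlier results of these data known. Named were the 5 members, listed genes that passed, up to 2 with the smallest p in a list where none passed, and for likeness the 2 highest r. Neighbours, MADS relatives, dim listed genes and the genes named beside a called one were added later. Alternatives were no filter, a 60th percentile filter, a pseudocount of 38.3 (the 25th percentile of signals), quantile normalization, median centring, no trend, weighted arrays, a block for the replicate number, and left-out arrays. The number of arrays limits the precision.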

Additional observations from a re-analysis of the deposited data

How the results depend on the processing

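LD and FLC kept their sign under every alternative run, LD over 14 of them and FLC over 15, and SMZ passed under none of 14 (limma adjusted p from 0.0528 to 0.331). LD and SMZ could not be tested with the 60th percentile filter. LD lost its call only without single arrays, with log2 fold changes of -1.197 to -0.866 over those fits, and FLC lost it in 5 of 6 such fits (0.545 to 0.792), with no filter (0.68, limma adjusted p = 0.0571) and without Col-0 replicate 2 and atsf1-2 replicate 3 together (0.72, 0.0544). Fewer samples or more probe sets tested enter these fits by construction, and why the calls were lost was not tested.

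The titles number the replicates without stating a pairing, and arrays of one number deviated from their genotype means with correlations of 0.102, -0.186 and -0.209, so the numbers were not taken as pairs. With the replicate block FLC had a log2 fold change of 0.68 (limma adjusted p = 0.0707), and 171 probe sets were higher and 263 lower.

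Of other flowering time genes, 1 was lower in the main setting and 0 with no filter, the 60th percentile filter, quantile normalization, median centring or both arrays left out, and 0 to 1 without single arrays. That gene, AT1G69570, was dropped by the 60th percentile filter and so was not tested there. FY turned positive after quantile normalization (0.14), with median centring (0.13) and without both arrays (0.013), and ran from -0.065 to 0.079 without single arrays. SNZ turned negative with array weights (-0.15), without both arrays (-0.25) and without atsf1-2 replicate 3, in a range of -0.14 to 0.38 without single arrays. Over all probe sets, 267 were higher and 439 lower with no filter, 755 and 362 with median centring, 947 and 1713 with array weights, and 271 higher by eBayes without trend. Leaving out single arrays gave 130 to 463 higher and 151 to 777 lower. For these counts the cause was not tested. SOC1 and CO gave log2 differences of 0.0067 to 1.48 and 0.18 to 0.67 without the filter, where combining it with other scalings or left-out arrays was chosen after seeing the data.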
